A study of Mus musculus with 10 samples.

Results

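The mouse major histocompatibility complex (MHC) class II locus on chromosome 17 was examined in chromatin loop lists from macrophages. It was followed through 10 genes of class II presentation and antigen processing: H2-Ab1, H2-Aa, H2-Eb1, H2-DMa, H2-DMb1, H2-DMb2, Tap1, Tap2, Psmb8 and Psmb9. They are 10 of the 21755 protein-coding genes annotated on the autosomes and X (GENCODE M21, build GRCm38). A loop was counted as near a member when at least 1 of its 2 anchor bins, each 10 kb wide, overlapped the 100 kb on either side of the member's transcription start site (TSS). The members were chosen by name and place and not by a cut on their values, but earlier results of these data were known. Over the 5 lists, 221 distinct bin pairs met this rule.

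The cells were bone marrow-derived macrophages of wild-type C57BL/6 female mice aged 2 to 3 months, grown in M-CSF. The 10 Hi-C samples made up 5 groups of 2 replicates, with treatment from day 6. M0[CTR] was untreated, M2[IL-4] had IL-4 (20 ng/ml, 24 h), and M2p[pIL-4] had the same IL-4 exposure and then, after washing, 24 h of rest. IFNG cells had interferon gamma alone (20 ng/ml, 3 h), and pIL-4 + IFNG cells had interferon gamma after IL-4 and rest. Each group had 1 loop list and no replicate values were analysed here, so no spread between replicates can be given and every comparison below is between lists. Intervals cover counting error only. Hi-C counts contacts between DNA segments and holds no expression values, so the macrophage identity could not be checked against marker genes. Values for the 5 lists are given throughout in the order M0[CTR], M2[IL-4], M2p[pIL-4], IFNG, pIL-4 + IFNG.

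MHC class II molecules, made of an alpha and a beta chain, carry peptides from endocytosed proteins to the cell surface for CD4 T cells. H2-DM, a class II-like dimer, exchanges the invariant chain remnant for peptide, and H2-O, encoded by H2-Oa and H2-Ob in the same locus, restrains it. The neighbouring Tap1 and Tap2 genes encode the transporter that brings peptides into the endoplasmic reticulum for class I molecules, and Psmb8 and Psmb9 encode interferon-inducible subunits of the immunoproteasome. Interferon gamma is the classical inducer of the class II chain, H2-DM, Tap and immunoproteasome genes, and IL-4 also raises class II in myeloid cells. Loops in mammalian chromatin often end at sites bound by CTCF, with the motifs at both ends pointing towards each other.

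Stretches before the RefSeq promoter starts of 3 class II genes are shown because they hold the same CCAAT-box letters. They come from the RefSeq promoter table (GRCm38.p6), which listed 8 of the 10 members, all but H2-Ab1 and Tap2. Each runs 5′ to 3′ on the gene's strand, with CCAAT or its reverse ATTGG in capitals. H2-Aa is read from the minus strand at chr17:34287824-34287973, H2-Eb1 from the plus strand at chr17:34305717-34305866, and H2-DMb2 from the plus strand at chr17:34145099-34145235. The start that the table uses for H2-DMb2, chr17:34145249, lies downstream of the annotated gene start given below, so this stretch is inside the gene.
H2-Aa: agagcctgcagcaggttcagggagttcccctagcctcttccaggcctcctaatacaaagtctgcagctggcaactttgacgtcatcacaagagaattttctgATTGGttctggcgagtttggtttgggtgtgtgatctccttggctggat
H2-Eb1: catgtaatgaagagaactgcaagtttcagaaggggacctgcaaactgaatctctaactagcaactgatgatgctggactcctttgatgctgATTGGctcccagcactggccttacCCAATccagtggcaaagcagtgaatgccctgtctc
H2-DMb2: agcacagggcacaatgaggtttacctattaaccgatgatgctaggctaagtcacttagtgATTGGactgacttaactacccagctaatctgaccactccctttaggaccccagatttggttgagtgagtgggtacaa

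Shorter windows around single matches are shown for H2-DMb1, Psmb9 and Psmb8. H2-DMb1 held ATTGG at chr17:34153130-34153134. Psmb9 and Tap1 are divergent neighbours, and the same CCAAT-box letters at chr17:34187334-34187338 lay in both promoter windows. Psmb8 held a GAS motif (TTCNNNGAA) at chr17:34198098-34198106, as did H2-DMb2 at chr17:34145031-34145039. All of these matches precede the starts in the RefSeq table, but those of H2-DMb1, Psmb9, Psmb8 and H2-DMb2 lie downstream of the GENCODE starts of these genes.
H2-DMb1: attcactcagtgATTGGtctgacctgcct
Psmb9: gcgcagccgctgATTGGaaa
Psmb8, GAS: tcctccgctgTTCCCAGAAgatgcccccc
H2-DMb2, GAS: agggttgtatTTCCTGGAAatgcttcagc
Over all 32544 promoter entries, the 250 bases before the start held CCAAT or ATTGG in 33.8% and a GAS motif in 7.04%. An interferon-stimulated response element core, GAAA repeated after a gap of 2 bases on either strand, stood in 2.98% of all entries and in none of the members' windows. Both strands were read, and a match is only a description of these letters.

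CTCF motif matches are shown for bins at the borders of the loop segments described below and for some of the loop-rich bins that held one. Others with matches are not shown. Among them are chr17:34130001-34140000 and chr17:34170001-34180000, with plus-strand matches only, and chr17:34350001-34360000, with a minus-strand match. The H2-Ob body bin, which opens the second segment, and the H2-Oa start bin, both rich in loops, held none. A match has at most 1 mismatch to the 14-letter consensus, whose letters are in capitals.
First bin of the H2-DM and Tap segment, chr17:34034332-34034345, plus strand, 1 mismatch: cactttctCCTCCAGGGGGCGCagttgggt
Bin between Col11a2 and H2-Oa, chr17:34077751-34077764, plus strand, 1 mismatch: tgtttgtaCCACAAGAGGGCGCtctaggcc
Bin at the H2-DMb1 end, chr17:34165535-34165548, minus strand, 1 mismatch: ctctctagCCTCCAGGGGGCACcaggcaca
Last bin of the H2-DM and Tap segment, chr17:34235168-34235181, minus strand, 0 mismatches: ttacatggCCACCAGATGGCACcagactca
Btnl1 bin, chr17:34383412-34383425, minus strand, 1 mismatch: agcagaggCCAGAAGAGGGCGCcaggttcc
Last bin of the class II chain segment, chr17:34411335-34411348, minus strand, 0 mismatches: acaggtatCCACCAGGGGGCACtcacctcc
Of the 39 bins of the 2 segments, 19 (48.7%) held a match, compared with 34.1% of the chromosome 17 bins that anchored a loop in any list and 23.6% of all sequenced bins of that chromosome. The 6 matches in the first 110 kb of the locus all read on the plus strand, and 6 of the 7 in its last 80 kb read on the minus strand, a division made after the matches were seen. No CTCF binding was measured here.

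The locus was dense in short loops in all 5 lists. The lists held 97, 101, 122, 103 and 141 loops near a member, out of 53424, 58260, 67728, 55012 and 67000 loops. Per 10000 loops this was 18.16 (exact binomial 95% interval 14.73 to 22.15), 17.34 (14.12 to 21.06), 18.01 (14.96 to 21.5), 18.72 (15.28 to 22.7) and 21.04 (17.72 to 24.81). The pIL-4 + IFNG list was the highest and M2[IL-4] the lowest, and all 5 intervals overlapped. Loops near the members were short, with a median span of 60 kb in every list against 160 to 180 kb in the whole lists. At most 3 per list were over 200 kb, a length passed by 40.6% to 43.6% of all loops. Pairs of adjacent bins made up 14.8% to 21.4% of the loops near the members and 4.50% to 5.66% of the lists. Median contacts per loop were 55, 57, 58, 56 and 55 near the members and 32 in every whole list. Divided by the median of all loops of equal span in the list, the counts had locus medians of 1.00 to 1.03.

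Scaled by list length, the number of loops near the members differed little between lists. The ratio was 0.955 (95% interval 0.715 to 1.28) for M2[IL-4] against M0[CTR], 0.992 (0.754 to 1.31) for M2p[pIL-4] against M0[CTR], and 1.03 (0.774 to 1.38) for IFNG against M0[CTR]. It was 1.04 (0.792 to 1.37) for M2p[pIL-4] against M2[IL-4], 1.17 (0.910 to 1.501) for pIL-4 + IFNG against M2p[pIL-4], and 1.12 (0.866 to 1.46) for pIL-4 + IFNG against IFNG. Every interval included 1, so changes of up to about these bounds were not detectable from 97 to 141 loops. Cut to the length of the shortest list by strength (contacts relative to the median of loops of equal span), the lists held 97, 94, 97, 97 and 104.

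**Figure D1:**
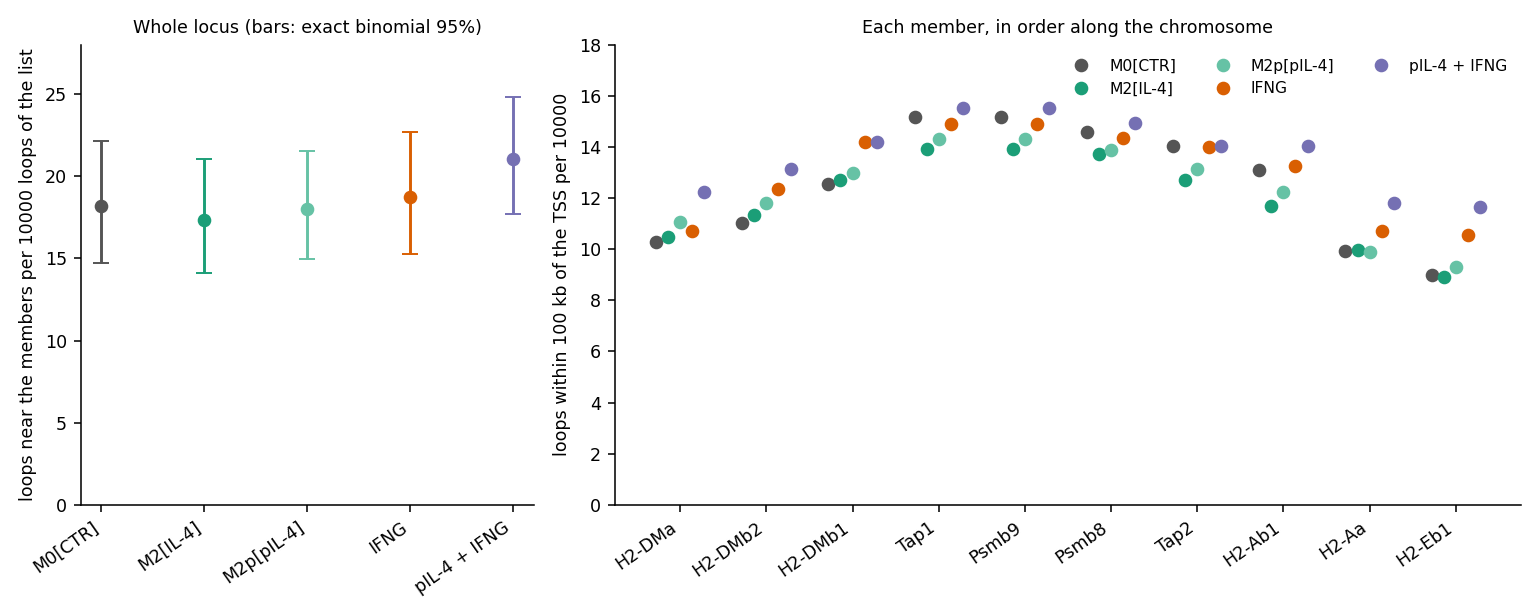
Left, loops near the members per 10000 loops of each list, with exact binomial 95% intervals, which all share the range from 17.72 to 21.06. Right, loops within 100 kb of each member's TSS per 10000, ordered along the chromosome; neighbouring members share most of their loops, and Tap1 and Psmb9 share the same start bin.

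Per member, Tap1 and Psmb9 had the most loops within 100 kb and H2-Eb1 the fewest in every list. Both Tap1 and Psmb9 had 81, 81, 97, 82 and 104 loops, H2-Ab1 had 70, 68, 83, 73 and 94, and H2-Eb1 had 48, 52, 63, 58 and 78. The windows overlap, so the 10 values are not independent. A call was a ratio past 1.5-fold after scaling by list length, with 1 added to each number. None of the 10 members passed it in any of the 6 comparisons. Over all genes with at least 5 loops in the mean of the lists compared, 15.9% passed in either direction for M2[IL-4] against M0[CTR], 12.4% for M2p[pIL-4] against M0[CTR] and 17.8% for IFNG against M0[CTR]. The share was 14% for M2p[pIL-4] against M2[IL-4], 15.2% for pIL-4 + IFNG against M2p[pIL-4] and 12.7% for pIL-4 + IFNG against IFNG. Genes with few loops pass such a ratio more easily than the members, which had 48 or more. On the log2 scale the members' median difference for pIL-4 + IFNG against M2p[pIL-4] was 0.13 (0.09 to 0.32), with 0.02 over all genes. For M2[IL-4] against M0[CTR] the median was -0.05 (lowest to highest member -0.17 to 0.03), with -0.02 over all genes.

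The bin pairs were shared by the lists more often than bin pairs elsewhere. All 5 lists called 43 of the 221 pairs (19.5%), compared with 9.18% of all bin pairs in the series. A single list held 87 of them (39.4%), compared with 55.5% of all. Pairs near the members were also shorter and had more contacts, and no share was taken over pairs of like span or contacts. Pairs found in no other list numbered 11, 9, 22, 16 and 29, with the largest number in pIL-4 + IFNG.

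The loops fell into 2 adjoining segments, drawn after the data had been seen at the bin edges that the fewest loops crossed over the 5 lists. Low numbers at those edges are therefore a description, set by the way they were chosen. The first, chr17:34030001-34240000 (210 kb), holds the starts of H2-DMa, H2-DMb2, H2-DMb1, Psmb9, Tap1, Psmb8 and Tap2. The second, chr17:34240001-34420000 (180 kb), holds the starts of H2-Ab1, H2-Aa and H2-Eb1. Loops with both anchors in the first numbered 47, 51, 63, 54 and 71, and those within the second 40, 36, 44, 42 and 52. Together they made up 86.1% to 93.2% of the loops near the members. Few loops joined the segments: 2, 3, 5, 3 and 5, with 17 to 44 contacts each. In strength these had list medians of 0.66 to 0.88, under the median of the list at the same span.

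The border was visible as a dip in the number of loops that cross a bin edge. At the edge between the segments 2, 3, 5, 3 and 5 loops crossed, against peaks of 20, 20, 30, 23 and 32 within the first segment and 39, 35, 43, 34 and 40 within the second. The left edge of the locus was crossed by 0, 1, 0, 0 and 0 loops, and the right edge by 1, 4, 2, 2 and 10. The right edge was thus crossed most often in pIL-4 + IFNG, by 10 loops that left from the Btnl1 and BC051142 bins, and its 5 numbers did not change with equal list lengths. At the border between the segments every list then had 2 crossing loops. A low crossing number is common on chromosome 17, where 41.2% to 48.6% of edges were crossed by no loop, so the dip stands out only against the peaks on its sides. The bin at chr17:34220001-34230000, beside the border, anchored no loop in any list. Repeats masked 93.0% of its bases, the highest share of the 39 bins, whose median was 25.4%. Whether this bears on the gap was not tested.

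**Figure D2:**
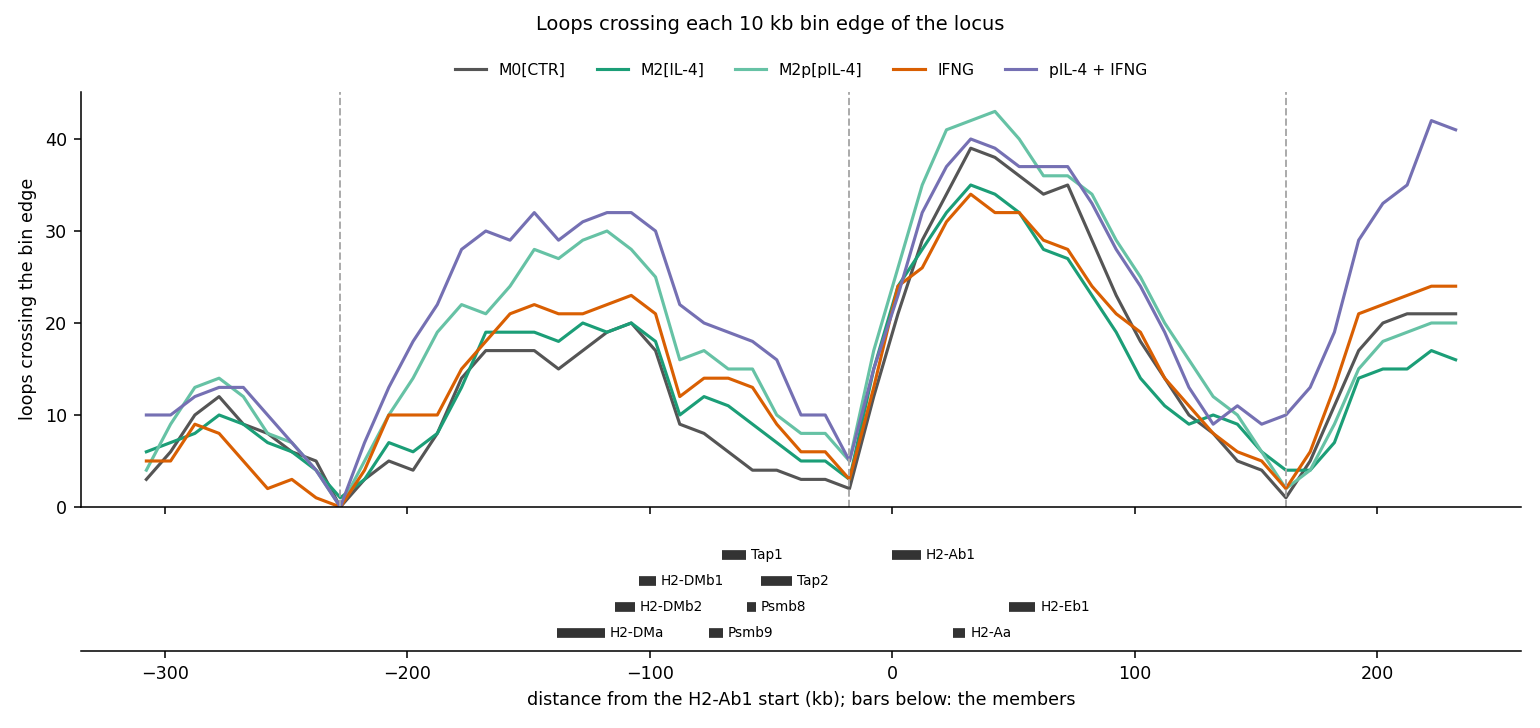
Number of loops crossing each 10 kb bin edge (y axis) against distance from the annotated H2-Ab1 start in kb (x axis), 1 line per list, with the members drawn as bars beneath and the segment edges dashed. All 5 lines fall to 0 or 1 at the left edge and to between 2 and 5 at the border, and rise to peaks of 34 to 43 over the class II chain genes.

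H2-Ab1, the beta chain of I-A, starts at chr17:34257689 in GENCODE, on the plus strand. Its start bin anchored 9, 9, 9, 11 and 8 loops with 332, 361, 315, 484 and 302 contacts in all. Such totals run over the pairs called in a list and rise with their number. At pairs called in both lists they were 284 in IFNG and 283 in M0[CTR], a scaled ratio of 0.974 (0.823 to 1.15). The RefSeq start, at chr17:34263227, lies in the next bin, which anchored 8, 4, 9, 4 and 9. The first of these bins was highest in IFNG and the second was at its lowest, with 4 loops, in both M2[IL-4] and IFNG. Adjacent bins aside, the loop of the GENCODE start bin with the most contacts ran 90 kb to the H2-Eb2 gene and had 46, 43, 33, 40 and 63 contacts. The pair with the next bin, called in IFNG alone, had 118. The 90 kb loop was highest in pIL-4 + IFNG and lowest in M2p[pIL-4], the widest spread of the 43 pairs called in all lists. Its ratio was 1.94 (1.25 to 3.04) for pIL-4 + IFNG against M2p[pIL-4], with a two-sided exact binomial p of 0.00233 that was 1 after Benjamini-Hochberg adjustment over all bin pairs.

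H2-Aa, the alpha chain of I-A, starts at chr17:34287823 on the minus strand. Its bin anchored 7, 5, 3, 5 and 7 loops, with 518, 454, 238, 410 and 619 contacts, the fewest in M2p[pIL-4]. At pairs called in both lists, contacts were 174 in M2p[pIL-4] and 165 in M0[CTR], a scaled ratio of 1.025 (0.824 to 1.28). H2-Eb1, the beta chain of I-E, starts at chr17:34305867 on the plus strand. C57BL/6 mice do not express the I-E alpha chain, H2-Ea, which is not among the protein-coding genes used here under that symbol. The H2-Eb1 bin anchored 2, 2, 5, 0 and 2 loops, the only member start bin with none in a list. The H2-Aa bin had its most contacts with its neighbours: 113, 120, 124, 121 and 126 with the bin before it, and 155, 133, 146 and 134 with the bin after it, not called in M2p[pIL-4]. Between bins that do not adjoin, its strongest pair and that of the H2-Eb1 bin were each called in 1 list. The pair from H2-Aa to the H2-Ab1 body had 120 contacts in pIL-4 + IFNG, and that between the H2-Aa and H2-Eb1 starts had 95 in M2[IL-4]. A pair that is not called has no count in a list, so the missing values are not zeros.

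The pair that joined the H2-Ab1 and H2-Eb1 start bins was called only in the 3 lists after IL-4, with 45, 42 and 43 contacts. Between the H2-Ab1 body and the H2-Eb1 body, a pair was called in every list but M0[CTR], with 47, 48, 60 and 56 contacts. The H2-Eb2 start bin, which lies beside H2-Eb1 and encodes a further class II beta chain, anchored 3, 3, 2, 7 and 6 loops. It was higher in both IFNG lists than in the rest. Its pairs with a bin between H2-Ab1 and H2-Aa (48 and 55 contacts) and with the Btnl1 bin (56 and 59) were called only in the IFNG and pIL-4 + IFNG lists. By the looser matching described below, the first of these pairs had a counterpart in M0[CTR]. The second had none in M0[CTR] or M2[IL-4] but did in M2p[pIL-4].

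The genes for the H2-DM chains lay in the middle of the first segment. H2-DMa, the alpha chain, starts at chr17:34119541, H2-DMb2 at chr17:34143307 and H2-DMb1 at chr17:34153072, all on the plus strand. The last 2 encode closely similar beta chains, so reads from shared stretches may not have been placed with certainty. Their start bins anchored few loops: 2, 1, 1, 1 and 3 for H2-DMa, 3, 3, 4, 3 and 4 for H2-DMb2, and 5, 4, 3, 4 and 4 for H2-DMb1. No list stood apart by more than 2 loops in any of them. The most contacts were with adjacent bins. The H2-DMb2 bin had 148, 145, 155, 143 and 153 with the bin before it, and the H2-DMa bin 124, 101, 96, 106 and 125. The H2-DMb1 bin had 152, 155, 155 and 143 with the bin after it, not called in M2p[pIL-4]. Between bins that do not adjoin, contacts reached 92, 85, 85, 97 and 82 from the H2-DMb2 start to the H2-DMb1 end, and 106, 98, 99, 106 and 119 from the H2-DMa body to the H2-DMb1 start.

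The bin at the H2-DMb1 end, chr17:34160001-34170000, was richer in loops than the gene starts. It anchored 10, 10, 11, 11 and 12, with the minus-strand CTCF match shown above in it. Its loop from the H2-DMa body had 161, 128, 159, 127 and 173 contacts, lower in M2[IL-4] and IFNG than in the rest. For IFNG against M0[CTR] its ratio was 0.765 (0.602 to 0.972), and for pIL-4 + IFNG against IFNG it was 1.38 (1.09 to 1.75). The two-sided exact binomial p values were 0.0277 and 0.00635, and both were 1 after adjustment.

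Tap1 and Psmb9 start in the same bin, chr17:34180001-34190000, and run in opposite directions. This bin anchored 6, 7, 8, 4 and 7 loops with 435, 506, 566, 361 and 478 contacts, and the IFNG list was the lowest. The contacts are summed over the pairs called in each list. At pairs called in both lists they were 361 in IFNG and 346 in M0[CTR], a scaled ratio of 1.01 (0.871 to 1.18). The Psmb8 start bin anchored 2, 2, 2, 1 and 1 loops and the Tap2 start bin 2, 2, 5, 6 and 4. The loop between the Tap1 and Psmb9 start bin and the Tap2 start bin, called in all lists, had 68, 68, 78, 74 and 68 contacts. From the same bin to the Tap2 body, a pair with 67, 57 and 66 contacts was called only in the 3 lists after IL-4. The Tap2 body bin anchored 3, 8, 6, 3 and 6 loops, more in those 3 lists than in M0[CTR] or IFNG. In lists of equal length the numbers were 3, 7, 3, 3 and 3, and the order held for M2[IL-4] alone.

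Loops that passed over the Tap1 and Psmb9 start bin were fewest in M0[CTR]. They numbered 4, 8, 12, 12 and 16 (exact Poisson 95% intervals 1.09 to 10.24, 3.45 to 15.8, 6.20 to 21.0, 6.20 to 21.0 and 9.15 to 26.0). Scaled by list length, the ratio to M0[CTR] was 1.83 (0.491 to 8.32) for M2[IL-4] and 2.37 (0.717 to 10.1) for M2p[pIL-4]. With interferon gamma it was 2.91 (0.883 to 12.4) alone and 3.19 (1.03 to 13.1) after IL-4. Only the last interval left out 1, and that pair of lists differs in both treatments. These loops were weak, with 4, 7, 9, 9 and 12 of them under the median count at their span, and 16 of the 28 distinct pairs were called in 1 list. With all lists cut to the length of the shortest by strength, the numbers were 4, 6, 4, 8 and 4, so the order of the lists rested on the weakest calls.

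Counted over each TSS, 4 of the 10 members (Tap1, Tap2, Psmb8 and Psmb9) had a more than 1.5-fold higher number of spanning loops against M0[CTR] in each of the M2[IL-4], M2p[pIL-4] and IFNG lists. The shares of all genes tested were 10.4%, 10.4% and 15.7%. The 4 genes lie side by side and share these loops, so they count once. No member passed for M2p[pIL-4] against M2[IL-4] (11.4% of genes), pIL-4 + IFNG against M2p[pIL-4] (13.7%) or pIL-4 + IFNG against IFNG (9.28%). With a pseudocount of 5, the number for M2[IL-4] against M0[CTR] was 0 and for M2p[pIL-4] against M0[CTR] it was 1.

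The H2-Oa start bin, chr17:34090001-34100000, had the widest range of loop numbers among the loop-rich bins of the locus. It anchored 6, 12, 15, 7 and 11 loops with 726, 1020, 1273, 789 and 943 contacts. These contacts are summed over the pairs called in each list and rise with their number. At pairs called in both lists they were 613 in M2[IL-4] and 647 in M0[CTR], a scaled ratio of 0.948 (0.848 to 1.06). For M2p[pIL-4] they were 681 against 647 (1.02, 0.918 to 1.14). In number of loops the 3 lists after IL-4 lay above the other 2, and they did so also with equal list lengths (6, 12, 14, 7 and 10). Of the 8 pairs called only in those 3 lists, 4 ended in this bin. The share of this pattern over the whole series was not taken. From the Col11a2 region came 3, with 72, 73 and 66, 83, 89 and 84, and 60, 64 and 71 contacts. The gap between H2-DMb1 and Psmb9 was reached by 1, with 38, 47 and 35. The pattern holds for exact bins only. Matched within 25 kb, as described below, each of the 4 had a counterpart in M0[CTR] and in IFNG. The pair of this bin with chr17:34060001-34070000, also in Col11a2, was called in M0[CTR] with 93 contacts. A pair from the same bin to the H2-DMa body was called in all lists but M0[CTR] (69, 87, 76 and 73). Its pair with the H2-Ob body, 150 kb away, was called only in both IFNG lists (42 and 44).

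The bin in the H2-Ob body, chr17:34240001-34250000, at the border of the segments, anchored 10, 12, 12, 12 and 14 loops, the highest mean of all bins in the locus. Its loops reached into the second segment, to the H2-Eb1 body (50, 46, 62, 63 and 56 contacts) and to Btnl1 (75, 70, 68, 63 and 70). Pairs with 2 bins in the H2-Eb2 body were called in all lists, with 69, 81, 73, 68 and 69 contacts and with 56, 57, 78, 58 and 62. The pair with the H2-Eb2 start bin was called in all lists but M0[CTR] (50, 57, 53 and 56). The Btnl1 bin, chr17:34380001-34390000, held a minus-strand CTCF match and anchored 2, 7, 6, 7 and 10 loops. It was lowest in M0[CTR] by 4 loops or more, with the same 5 numbers at equal list lengths. Butyrophilin-like genes such as Btnl1 and Btnl2 adjoin the class II genes.

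The next counts are over 26 loop-rich bins that anchored loops near the members, some of them outside both segments. Of these, 3 had more loops per list length in all 3 lists after IL-4 than in the other 2. In the whole series 6.43% of such bins did. Among the 3 was chr17:33950001-33960000, which lies outside both segments. Both IFNG lists lay above the other 3 in 7 of the 26 bins, against 10.7% in the series. Among the 7 was chr17:34560001-34570000, at Notch4, also outside both segments. All 4 treated lists lay above M0[CTR] in 4 of the 26, against 14.1%. Bins of 1 locus share loops, so these are descriptions and not tests.

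**Figure D3:**
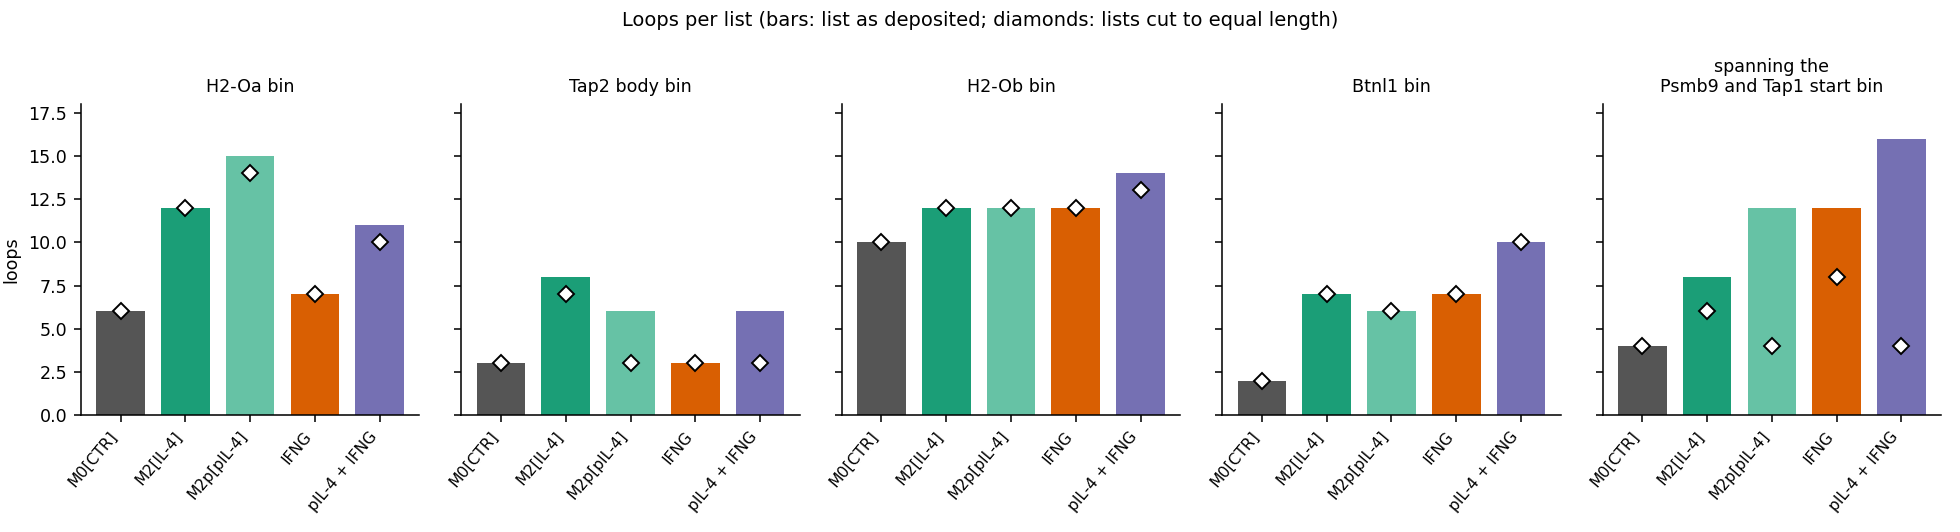
Loops anchored in 4 bins of the locus, and loops passing over the Psmb9 and Tap1 start bin (right), per list; bars are the lists as deposited and diamonds the lists cut to equal length by strength. The H2-Oa bin keeps 12, 14 and 10 loops in the lists after IL-4 against 6 and 7 in the others, whereas the spanning loops fall to 4, 6, 4, 8 and 4.

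Where a bin pair near the members was called in both lists of a comparison, the contacts hardly differed. Relative to all bin pairs called in both lists, the ratio of summed contacts was 0.982 (0.946 to 1.02) for M2[IL-4] against M0[CTR] over 67 pairs and 0.997 (0.959 to 1.04) for M2p[pIL-4] against M0[CTR] over 63. It was 0.998 (0.961 to 1.04) for IFNG against M0[CTR] over 61 pairs and 1.02 (0.983 to 1.06) for M2p[pIL-4] against M2[IL-4] over 70. For pIL-4 + IFNG the ratio was 1.03 (0.997 to 1.07) against M2p[pIL-4] over 86 pairs and 1.02 (0.989 to 1.06) against IFNG over 79. All 6 intervals included 1, and the bounds put any difference in these summed contacts at under 7% either way.

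Over the 43 pairs called in all lists, contacts summed to 3853, 3739, 3946, 3907 and 4044. The median ratio of the highest to the lowest list was 1.23 per pair and the largest was 1.91. The pair counts varied between lists by 0.762 times the variance of counting noise. A pair enters only if called in every list, which removes low counts.

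No bin pair and no anchor bin near the members passed the two-sided exact binomial test after Benjamini-Hochberg adjustment over the genome, in any of the 6 comparisons. For IFNG against M0[CTR], 0 of 61 pairs and 0 of 50 anchors passed, with 0.00797% of all pairs and 0.0188% of all anchors called. In the other 5 comparisons the share called over the genome was 0% for pairs and for anchors. At an unadjusted p under 0.05 there were 1, 3, 1, 2, 2 and 2 pairs near the members (of 61 to 86) and 0, 2, 0, 3, 2 and 0 anchors (of 50 or 51), in the order of the comparisons above. Over the genome, 1.47% to 1.77% of pairs and 1.44% to 1.93% of anchors passed that unadjusted level. The test compares lists and takes no account of variation between cultures. It holds only pairs called in both lists, so pairs gained or lost between lists could not enter. The shares passing over the genome were below the unadjusted level itself, so the test was conservative.

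**Figure D4:**
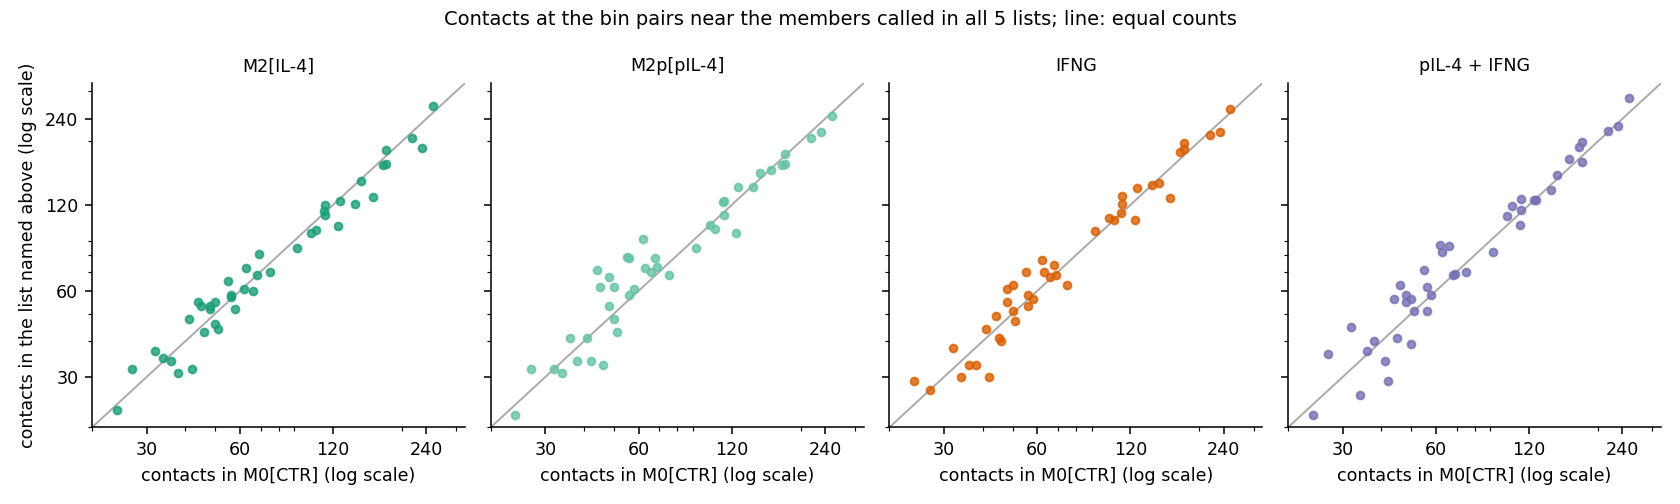
Contacts at the 43 bin pairs near the members called in all 5 lists, each treated list (y axis) against M0[CTR] (x axis), both on log scales; the line marks equal counts. Points follow the line in all 4 panels, with the highest list at most 1.91 times the lowest for any pair.

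Loops near the members were matched to a reference list when both anchors lay within 25 kb. Such a match accepts neighbouring bin pairs, so loops of a dense locus find one more easily. Touching pairs are also counted as separate loops in the intervals. How far the low shares below follow from density was not tested. No match in M0[CTR] was found for 4 of 101 loops in M2[IL-4] (3.96%, exact binomial 95% interval 1.09% to 9.83%). The M2p[pIL-4] list had 8 such loops of 122 (6.56%, 2.87% to 12.5%), and the IFNG list 13 of 103 (12.6%, 6.90% to 20.6%). In the whole lists the shares were 13.6%, 14.1% and 13.0%, and for loops of up to 200 kb 10.5%, 10.9% and 9.64%. For M2[IL-4] the upper bound lay below both list values, and for M2p[pIL-4] below the first but not below that of loops of up to 200 kb. The IFNG share was close to that of its whole list.

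Of the 13 unmatched IFNG loops, 7 had both anchors between H2-Eb2 and BC051142, at the right end of the class II segment, with 43 to 147 contacts. The other 6 ended in the Tap2, H2-Ob or H2-Eb2 bins and had 23 to 42. All but the loop from the gap between H2-DMb1 and Psmb9 to the H2-Eb2 body (29 contacts) had a match in M2p[pIL-4]. Most had one in M2[IL-4] too, and neither of those groups had interferon gamma. In pIL-4 + IFNG, 3 of 141 loops had no match in M2p[pIL-4] (2.13%, whole list 11.4%, up to 200 kb 8.16%) and 5 had none in IFNG (3.55%, whole list 13.5%, up to 200 kb 10.8%). Loops of M0[CTR] without a match numbered 0 of 97 against M2[IL-4], 0 against M2p[pIL-4] and 1 against IFNG. In the whole M0[CTR] list the shares were 10.8%, 8.88% and 11.99%, and for loops of up to 200 kb 7.34%, 5.45% and 9.28%. An exact upper bound of 3.73% goes with each 0.

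Classes were drawn from the 3 lists without IFNG by the same matching within 25 kb. None of the 101 M2[IL-4] loops was Transient (unmatched in both other lists), and 4 were Memory (no match in M0[CTR] but 1 in M2p[pIL-4]). Of 122 M2p[pIL-4] loops, 4 were Primed (likewise unmatched in both others). The shares were 0%, 3.96% and 3.28%, with 7.23%, 6.32% and 8.35% in the whole lists, and carry the same limit of matching in a dense locus.

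Other genes of antigen presentation were counted in 2 lists. For class II loading and regulation, 18 of 21 genes were annotated and 15 or 16 tested per comparison, 3 of them (H2-Oa, H2-Ob and H2-Eb2) inside the locus. Past 1.5-fold were Nfya and Nfyb, subunits of the factor that binds CCAAT: Nfyb had 10, 3, 10, 6 and 7 loops within 100 kb and Nfya 8, 8, 7, 5 and 7. Both were lower in IFNG than in M0[CTR], from small numbers, and Nfyb was lower in M2[IL-4] than in M0[CTR] or M2p[pIL-4]. Rfx5, a factor that binds the class II X box, had 16, 22, 22, 12 and 10 and was lower in pIL-4 + IFNG than in M2p[pIL-4]. The costimulatory genes Cd86 and Cd80 had 6, 2, 5, 7 and 10 and 25, 38, 28, 22 and 26 loops, with Cd86 higher in pIL-4 + IFNG than in M2p[pIL-4] and Cd80 lower in M2p[pIL-4] than in M2[IL-4].

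The class II transactivator gene Ciita and the invariant chain gene Cd74, named after their values were seen, had 55, 73, 62, 77 and 79 and 47, 54, 59, 62 and 70 loops and did not pass the fold. In all, 0, 0, 0, 1, 1 and 0 class II genes were past it in the higher direction over the 6 comparisons, and 1, 0, 2, 1, 1 and 0 in the lower. These are at most 2 of 15 or 16 genes either way, against the 12.4% to 17.8% of all genes past the fold, and do not exceed that background.

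For class I loading and peptide supply all 24 genes were annotated and 18 to 20 tested. B2m, the class I light chain, had 2, 6, 9, 7 and 10 loops and passed the fold for M2p[pIL-4] against M0[CTR]. Genes lower than in M0[CTR] were Psme1 (30, 21, 26, 22 and 32) and H2-Q4 (7, 3, 7, 6 and 5) in M2[IL-4], and Canx (18, 20, 23, 12 and 19) in IFNG. Psmb5 (22, 14, 16, 20 and 17) was lower both under IL-4 and after the rest. H2-Q4 was also higher in M2p[pIL-4] than in M2[IL-4]. The most in any comparison was 3 of 18 genes, for M2[IL-4] against M0[CTR], where 15.9% of all genes passed. In median log2 ratio the class II list was at 0.14 and the class I list at -0.15 for IFNG against M0[CTR], beside -0.04 over all genes, and these stand without a test.

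Among 6551 genes outside the locus with at least 20 loops in the mean list, the 5 whose scaled loop numbers followed the locus most closely over the 5 lists were Arrdc2, Sac3d1, Icam4, Rasgrp4 and Gm38431. Their root mean square differences from the locus on the log2 scale were 0.02 to 0.03. Arrdc2 had 39, 41, 50, 42 and 56 loops. With 5 points and a locus that itself moved by -0.10 to 0.17 around its mean, such likeness is weak.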

How the data were processed

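Hi-C was made by the authors on 10 macrophage samples, 2 per group by their titles, with a HiChIP protocol lacking the pull-down step. Per the labels and methods, FastQC, HiC-Pro, Bowtie2 and Juicer were used, and HOMER is also listed. The deposited files were 5 loop lists, each line a pair of 10 kb bins with a count of contacts, used as raw counts. The caller, threshold and merging of replicates behind these lists are not given in the sources used here, and the methods describe wider bins. No loop ran past the end of chromosome 17 in GRCm38. The lists held 53424 to 67728 loops and 2174945 to 2787117 contacts.

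Counting used Python 3.11.15 and scipy 1.17.1, with exact binomial or Poisson 95% intervals. Gene ratios used list length as scale, a pseudocount of 1, at least 5 loops in the mean of both lists and 1.5-fold as threshold. Contacts per bin pair, and per anchor with at least 20 contacts, were compared by a two-sided exact binomial test, adjusted over the genome. The test was tried on simulated Poisson counts of anchors, which lacked the selection by calling in both lists. Motifs were searched in RefSeq promoters and the GRCm38.p6 sequence. Named were the members, listed genes past the fold, bin pairs by calling pattern, by contacts (adjacent bins left out) or by ratio, and the 5 genes most alike. Of the listed genes, 1 gene is not reported here. Members and lists were chosen with earlier results of these data known. Segments, spanning loops, named bins and their equal-length values were added after the data had been seen. Alternatives covered windows, bin pairs counted, list length, scaling, matching distance, pseudocount and fold.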

Additional observations from a re-analysis of the deposited data

How the results depend on the processing

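Of 138 values under other settings that answer a comparison, 116 kept within 1.5 times the count, or within the 95% interval, of the reported value. The other 22 moved further, and changes of direction were not counted. Merging touching bin pairs left 14, 18, 22, 26 and 25 loops (M0[CTR], M2[IL-4], M2p[pIL-4], IFNG, pIL-4 + IFNG). Its ratios were 1.31 (0.643 to 2.78) for M2p[pIL-4] against M0[CTR], 1.80 (0.909 to 3.74) for IFNG against M0[CTR] and 0.833 (0.461 to 1.501) for pIL-4 + IFNG against IFNG, all with 1 in the interval. Without merging these ratios were 0.992, 1.03 and 1.12, so the first and the last lay on the other side of 1. Over all settings loop ratios ran from 0.833 to 1.80 and contact ratios from 0.972 to 1.04.

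The unmatched share moved most. Asking for the same bins, it was 33.7%, 48.4%, 40.8%, 42.6%, 39.0% and 44.0% in the order of the 6 comparisons. At 50 kb it was 1.64% (M2p[pIL-4] against M0[CTR]), 3.88% (IFNG against M0[CTR]), 0.820% (M2p[pIL-4] against M2[IL-4]), 0% (pIL-4 + IFNG against M2p[pIL-4]) and 0.709% (pIL-4 + IFNG against IFNG). Members with more spanning loops were 0 with a pseudocount of 5 and 0 at 2-fold for M2[IL-4] against M0[CTR], and 1 with a pseudocount of 5 for M2p[pIL-4] against M0[CTR]. No anchor passed the binomial test under any setting tried for it. For loops within 100 kb, no member passed with a pseudocount of 5 or at 2-fold. These settings could hardly add a call, as a higher fold only removes calls and a larger pseudocount draws the numbers together. Other windows, merging and equal list lengths were not tried for this call.

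No paired analysis was possible because there was a single list for a group, and no replicate could be left out. Contacts of 17 to 283 per loop limit single pairs. RefSeq starts gave the same numbers of loops near the members.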
